A study of Mus musculus with 4 samples.

Results

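The SLC25 family comprises membrane carriers, most of them in the mitochondrial inner membrane. Members were taken as all genes whose symbol is Slc25a followed by a number, on probe sets annotated with exactly 1 gene. The arrays measured 44 such genes with 93 probe sets, of 18193 genes in all, and the brightest probe set over the 4 arrays stands for each gene. The cells were K7M2, a mouse osteosarcoma line that metastasises readily, grown in DMEM with serum. The study compared 3 samples over-expressing ezrinT567A-GFP (replicates 1 to 3) with 1 sample over-expressing GFP alone, under a title that names cell metabolism among its subjects. EzrinT567A is a mutant of ezrin, a protein that links the membrane to actin, with an alanine in place of its C-terminal phosphorylation site. The labels used here do not say whether the cells were clones or pools, what drove the transgenes, or whether the 3 replicates were separate cultures. Their spread may therefore be technical, and the GFP array has no replicate of its own.

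The inner mitochondrial membrane is tight to ions and charged metabolites, and SLC25 carriers let selected solutes through. They exchange ADP for ATP, bring in phosphate, export citrate for lipid synthesis, take up acylcarnitine for fatty acid oxidation, and move aspartate and glutamate in the shuttle that passes reducing equivalents from the cytosol. Most are built from repeated modules that span the membrane, and they reach it through dedicated import chaperones and the TIM22 complex. A few members sit elsewhere, such as Slc25a17 in peroxisomes and Slc25a46 in the outer mitochondrial membrane.

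The largest difference between the groups within the family belonged to Slc25a1, the citrate carrier. In the ezrinT567A-GFP samples the next were Slc25a44, which carries branched-chain amino acids, Slc25a12, an aspartate/glutamate carrier, and Slc25a40, a relative of the glutathione carrier Slc25a39, all of them above GFP. On the lower side the furthest was Slc25a30, an uncoupling-protein-like carrier. All 4 measured carriers of carnitine, S-adenosylmethionine and glutathione lay above GFP on all 3 arrays, as 32.5% of all genes and 37% of genes above the median level did. This group was listed with earlier results of these data known. The 3 differences of a gene share the single GFP array. None of the 44 members passed limma's test over all genes, as 0 of 18193 genes did (0% of genes called at an adjusted p under 0.05), so every difference below is a measured value and not a call.

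Because they frame these extremes, the 250 bases before the annotated start of Slc25a1 and of Slc25a30 are shown, from RefSeq on build GRCm38.p6, 5′ to 3′ on the strand of the gene. Capitals mark the matches to the 6 short motifs listed after the results.
Slc25a1, chr16:17928220-17928469, minus strand: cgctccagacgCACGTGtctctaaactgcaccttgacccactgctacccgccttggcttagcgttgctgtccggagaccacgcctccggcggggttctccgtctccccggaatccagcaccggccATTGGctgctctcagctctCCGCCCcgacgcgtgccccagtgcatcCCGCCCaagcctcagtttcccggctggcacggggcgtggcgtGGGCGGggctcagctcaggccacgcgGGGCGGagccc
Slc25a30, chr14:75787038-75787287, minus strand: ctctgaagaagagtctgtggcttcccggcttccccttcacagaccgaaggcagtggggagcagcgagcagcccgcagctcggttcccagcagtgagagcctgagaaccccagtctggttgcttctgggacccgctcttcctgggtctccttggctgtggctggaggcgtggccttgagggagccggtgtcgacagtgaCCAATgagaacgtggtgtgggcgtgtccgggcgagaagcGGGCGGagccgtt
The Slc25a1 window holds 4 GC boxes, 1 E-box and 1 CCAAT box, and the Slc25a30 window 1 GC box and 1 CCAAT box. These are matches of letters, and no factor binding was measured.

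All values are deposited RMA levels on the log2 scale. Array medians over all probe sets ran from 3.86 to 3.89 in ezrinT567A-GFP and stood at 3.85 in GFP. Bacterial hybridization spike-ins averaged 10.1, 11.1 and 10.4 on the ezrinT567A-GFP arrays and 9.32 on the GFP array, and 18S rRNA probe sets averaged 7.65, 11.3 and 7.76 against 9.09, so GFP was the lowest array in the spike-ins and replicate 2 the highest in both. The 3′ minus 5′ difference, a sign of RNA quality, was 0.35, 0.31 and 0.43 in ezrinT567A-GFP and 0.23 in GFP for Actb, and -0.21, -0.24 and -0.18 in ezrinT567A-GFP and -0.27 in GFP for Gapdh. GFP lay below all 3 ezrinT567A-GFP arrays in both. Of 7 measured osteoblast-lineage markers 4 lay above the median of all genes: Col1a1, Col1a2 and Sparc, at 10.99 to 12.45, and Sp7, at 5.22 to 5.41 in ezrinT567A-GFP and 5.05 in GFP. Alpl, Ibsp and Dlx5 lay between 2.34 and 4.02, below that median. Of the 6 epithelial markers 5 lay below GFP on all 3 arrays, where 25.6% of all genes did. The list mean was 3.74, 4.06 and 3.71 in ezrinT567A-GFP and 5.00 in GFP. Furthest were Krt14 at -2.80 (7.07 in GFP) and Krt5 at -2.05 (6.73 in GFP), then Cdh1 at -1.28. Epcam and Krt8 stood at -0.43 and -0.42, and Krt18 at 0.03. Above the median level of all genes were 2 of the 6. Among markers of leukocytes, endothelium, muscle, adipocytes, hepatocytes and germ cells 0 lay above the median level of all genes. The part of the spike-ins, 18S rRNA, RNA quality or epithelial markers in the differences below was not tested.

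Across the family the mean level over the 4 arrays ran from 1.77 (Slc25a31, the testis ADP/ATP carrier) to 12.1 (Slc25a3, the phosphate carrier). The median member stood at 6.99, and the median of all genes at 5.04. Above that median were 33 members, and 11 were at or below it: Slc25a2, Slc25a18, Slc25a23, Slc25a27, Slc25a31, Slc25a34, Slc25a35, Slc25a41, Slc25a48, Slc25a53 and Slc25a54. No detection call comes with RMA values, so these 11 are not shown to be expressed. Levels of different genes come from different probes and are not ranked as amounts of RNA.

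Over all 44 members, differences of the ezrinT567A-GFP mean from GFP ran from -0.33 to 0.83, with a median of 0.04, where all genes had a median of 0.03. By the mean, 27 members were above GFP and 17 below, where 10208 of all 18193 genes were above and 7977 below. Counts by mean in the groups and lists below are to be read beside these. Above GFP on all 3 arrays were 17 members (38.6%), where 32.5% of all genes were. Below GFP on all 3 arrays were 9 members (20.5%), where 25.6% of all genes were. The remaining 18 had arrays on both sides or level with GFP. At an unadjusted p under 0.05 in limma stood 5 members higher and 0 lower, where 7.46% and 6.5% of all genes did. At least 1.5-fold higher was 1 member, where 3.55% of all genes were, and 0 were at least 1.5-fold lower, where 3.12% were. At least 2-fold either way were 0 members and 1.68% of all genes. Among the 33 members above the median level, 16 lay above GFP on all 3 arrays and 6 below, where 37% and 29.6% of all genes above that level did. The median difference of these 33 was 0.21, where all genes above that level had 0.03. None of these counts is read as particular to the family. The lowest adjusted p of a member was 0.276. In bulk RNA, fewer cells of a kind and less RNA per cell cannot be told apart.

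**Figure D1:**
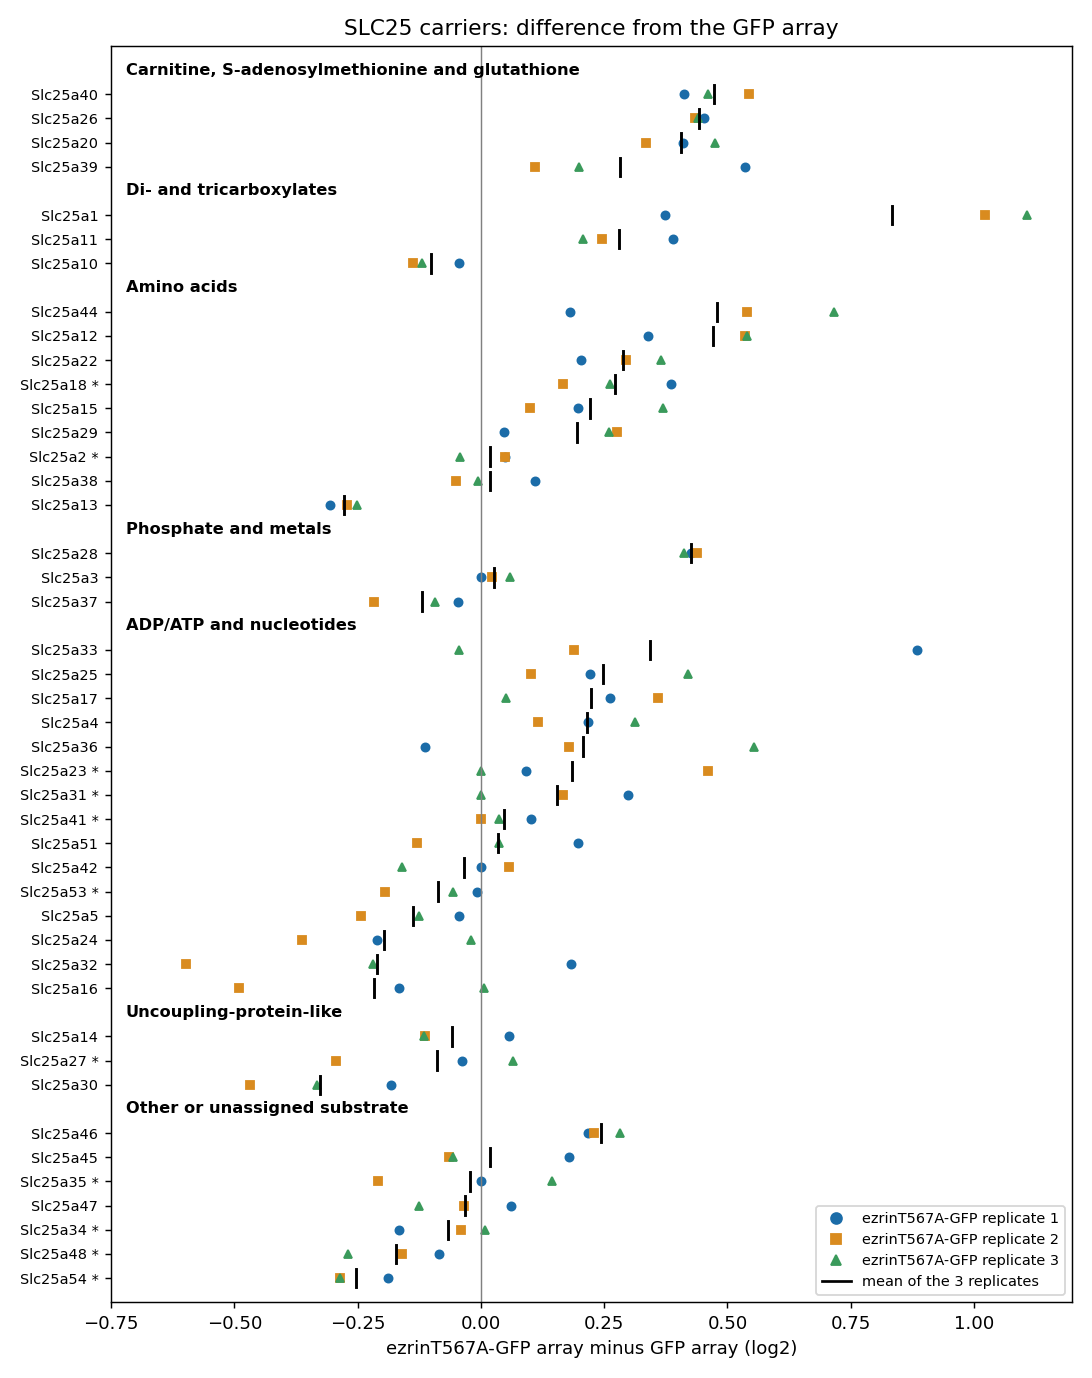
Difference of each ezrinT567A-GFP array from the GFP array (log2, horizontal axis) for the 44 carriers, grouped by substrate. Symbols are the 3 replicates, black ticks their mean, and an asterisk marks the 11 genes at or below the median level of all genes. The 4 carriers of the top group lie right of 0 on every array, and Slc25a1 reaches 1.02 and 1.11 in replicates 2 and 3.

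Array by array, 28, 24 and 25 of the 44 members lay above GFP in replicates 1, 2 and 3, and 14, 19 and 17 below it, while the others were level with it. Of all genes 53.7%, 53.6% and 50.6% lay above GFP in the same replicates. Members at least 1.5-fold above GFP were Slc25a33 in replicate 1, Slc25a1 in replicate 2, and Slc25a1 and Slc25a44 in replicate 3, where 4.45%, 5.11% and 4.22% of all genes were. The only member at least 1.5-fold below GFP was Slc25a32 in replicate 2, where 5.39% of all genes were, and 3.47% and 3.22% in replicates 1 and 3. The spread over the 3 replicates had a median SD of 0.11 in the family, with extremes of 0.01 for Slc25a26 and 0.48 for Slc25a33.

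Among the 3 measured carriers of di- and tricarboxylates, Slc25a1 exports citrate, from which ATP citrate lyase makes cytosolic acetyl-CoA. It read 7.34, 7.99 and 8.07 in ezrinT567A-GFP replicates 1 to 3 and 6.97 in GFP. All 3 arrays lay above GFP, with replicate 1 nearest to it, and the mean was 7.80 ± 0.40 (SD, n = 3). The difference was 0.83, or 1.78-fold (SE 0.34, 95% interval -0.08 to 1.75, limma adjusted p = 0.387). The gene lies on chromosome 16, whose genes above the median level had median differences of -0.10, 0.26 and 0.33 in the 3 replicates, likewise lowest in replicate 1. Less these medians, Slc25a1 was 0.48, 0.76 and 0.78 above GFP. Slc25a11, which exchanges oxoglutarate for malate, was 0.28 higher (SE 0.13), above GFP on all 3 arrays. Slc25a10, the dicarboxylate carrier, read 7.85, 7.76 and 7.78 in ezrinT567A-GFP and 7.90 in GFP, a difference of -0.10 (SE 0.11).

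The genes on either side of citrate export, listed with the results of the series known, lay above GFP as well. All 5 were higher on all 3 arrays, where 32.5% of all genes were, with a median of 0.51. At an unadjusted p under 0.05 stood 4 of them, where 7.46% of all genes stood higher, and 0 passed after adjustment. All 3 arrays are set against the same GFP array. The mitochondrial enzyme that makes citrate, Cs, was 0.51 higher (SE 0.15). Acly, the lyase that splits exported citrate, read 9.42, 9.56 and 9.44 in ezrinT567A-GFP and 8.96 in GFP, a difference of 0.52 (SE 0.11). Acaca, which commits acetyl-CoA to fatty acids, was 0.48 higher (SE 0.14) and the fatty acid synthase Fasn 0.70 higher (SE 0.18). Malic enzyme, Me1, was 0.20 higher (SE 0.12). Their limma adjusted p lay between 0.241 and 0.528.

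**Figure D2:**
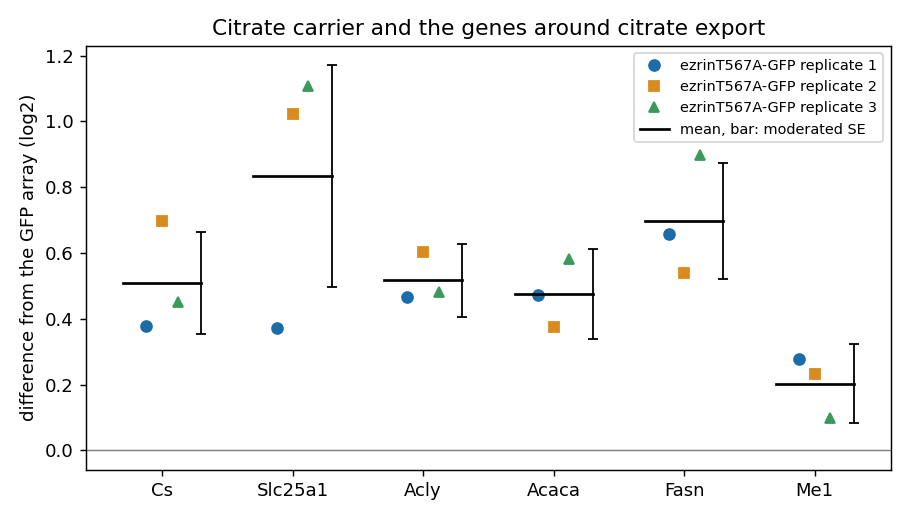
Difference from the GFP array (log2, vertical axis) of Slc25a1 and 5 genes around citrate export on each ezrinT567A-GFP array. Horizontal lines are means and bars moderated SE. All 18 points lie above 0, with Slc25a1 the most spread over the replicates.

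The carnitine carrier Slc25a20 takes acylcarnitines into the matrix for oxidation. It read 7.77, 7.69 and 7.83 in ezrinT567A-GFP and 7.36 in GFP. All 3 arrays lay above GFP, by 0.41 on average (SE 0.12, limma adjusted p = 0.298). A further probe set of Slc25a20 gave 0.46 (SE 0.14). Of 4 measured carnitine shuttle enzymes, which make and use its cargo, 2 were higher and 2 lower, with a median of 0.02, Cpt1a at 0.20 (SE 0.15) and Cpt1c at -0.10 (SE 0.12).

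Slc25a26 imports S-adenosylmethionine, the methyl donor for mitochondrial RNA and protein. It read 5.59, 5.57 and 5.58 in ezrinT567A-GFP and 5.14 in GFP. The replicates hardly differed among themselves, and their mean lay 0.44 above GFP (SE 0.11, limma adjusted p = 0.280). Its dimmer probe set gave -0.05.

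Slc25a39 brings glutathione into mitochondria, and Slc25a40 is its close relative. Slc25a40 read 7.08, 7.21 and 7.13 in ezrinT567A-GFP and 6.67 in GFP. The difference was 0.47 (SE 0.12, limma adjusted p = 0.280), again with all 3 arrays above GFP. Slc25a39 read 11.68, 11.26 and 11.34 in ezrinT567A-GFP and 11.15 in GFP, a difference of 0.28 (SE 0.19), with replicate 1 highest. All 5 probe sets of Slc25a39 gave positive differences, from 0.16 to 0.64. This group of 4 carriers had a median of 0.42, the highest of the 7 substrate groups. It joins different cargoes and was listed with earlier results of these data known, so the rank is only descriptive.

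Of 9 measured amino acid carriers 8 were above GFP by their mean and 1 below, where 10208 of all 18193 genes were above and 7977 below. The median of these carriers was 0.22, with 0 past the adjusted threshold. Above GFP on all 3 arrays were 6 of the 9, where 32.5% of all genes were. Slc25a12 and Slc25a13 are the calcium-regulated aspartate/glutamate carriers, and they lay on opposite sides. Slc25a12 read 8.30, 8.50 and 8.50 in ezrinT567A-GFP and 7.96 in GFP (difference 0.47, SE 0.14, limma adjusted p = 0.293). Its other probe sets, both below the median of all probe sets, gave 0.11 and -0.03, and the mean of its 3 probe sets 0.19. Slc25a13 read 7.03, 7.07 and 7.09 in ezrinT567A-GFP and 7.34 in GFP (difference -0.28, SE 0.11, limma adjusted p = 0.387). In each gene the 3 arrays lay on 1 side of the single GFP array, as 32.5% of all genes did above it and 25.6% below it. The level of Slc25a12 relative to Slc25a13 was thus 0.65, 0.81 and 0.79 above its value in GFP, a within-array ratio singled out after the values were seen. Less the medians of chromosomes 2 and 6 (0.11 and -0.07), the differences of Slc25a12 and Slc25a13 were 0.36 and -0.21. Around this shuttle, 3 of 4 enzymes were higher and 1 lower (median 0.13), with mitochondrial aspartate aminotransferase Got2 at 0.32 (SE 0.09) and cytosolic malate dehydrogenase Mdh1 at -0.17 (SE 0.19).

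Slc25a44 read 7.43, 7.79 and 7.97 in ezrinT567A-GFP and 7.25 in GFP. Its difference of 0.48 (SE 0.24, limma adjusted p = 0.466) again came with replicate 1 nearest to GFP. A second probe set gave 0.37, and the dimmest, below the median of all probe sets, -0.50. Slc25a22, a glutamate carrier, was 0.29 higher (SE 0.13) and the ornithine carrier Slc25a15 0.22 higher (SE 0.16), both above GFP on all 3 arrays. Slc25a15 lies on chromosome 8, and less that chromosome's median of 0.24 its difference was -0.016, with the sign turned. For Slc25a29, which carries basic amino acids, the representing probe set gave 0.19, the lowest of 5, and the highest gave 0.71. The glycine carrier Slc25a38, which supplies heme synthesis, stood at 0.02 (SE 0.13, 95% interval -0.34 to 0.38). Genes that use ornithine or urea cycle intermediates were 3 higher and 4 lower, with a median of -0.03. Only 3 of these 7 lay above the median level of all genes, and the others are not shown to be expressed.

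The phosphate carrier Slc25a3 read 12.08, 12.10 and 12.14 in ezrinT567A-GFP and 12.08 in GFP. The difference was 0.03, with a 95% interval of -0.16 to 0.21. The mitoferrins import iron for heme and iron-sulfur clusters. Slc25a28, mitoferrin 2, read 7.84, 7.86 and 7.83 in ezrinT567A-GFP and 7.42 in GFP. All 3 arrays lay 0.41 to 0.44 above GFP, and the mean difference was 0.43 (SE 0.11, limma adjusted p = 0.276), the lowest adjusted p of the family. Slc25a37, mitoferrin 1 and the form known from erythroid cells, read 8.27, 8.10 and 8.22 in ezrinT567A-GFP and 8.32 in GFP, a difference of -0.12 (SE 0.12). Of 5 measured genes of mitochondrial iron use 4 were higher and 1 lower, with a median of 0.20. Among them Alas1, the first enzyme of heme synthesis, was 0.71 higher (SE 0.15) and ferrochelatase, Fech, 0.39 higher (SE 0.12), with 0 past the adjusted threshold.

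**Figure D3:**
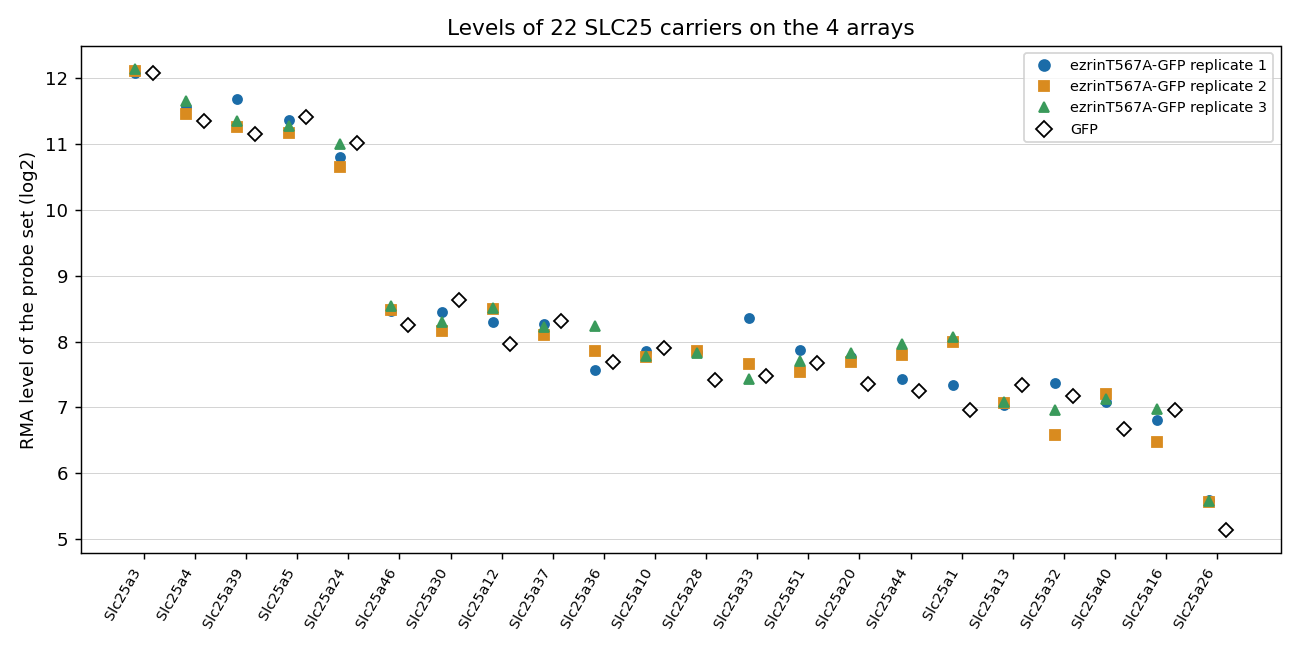
RMA level (log2, vertical axis) of 22 carriers on the 3 ezrinT567A-GFP arrays (filled symbols) and the GFP array (open diamond). Slc25a20, Slc25a26, Slc25a28 and Slc25a40 show replicates close together and above GFP, while Slc25a33 spans 7.43 to 8.36 over the replicates.

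Members listed under ADP/ATP and nucleotides formed the largest group, with 15 members, 9 above GFP by their mean and 6 below, and a median of 0.05. The groups follow a list and not measured transport. Slc25a53, at -0.09 (SE 0.13) and below GFP on all 3 arrays, is counted here without a shown substrate. On all 3 arrays 3 (20%) lay above GFP and 3 (20%) below, where 32.5% and 25.6% of all genes did. Of the 15, 11 lay above the median level of all genes. Slc25a4 and Slc25a5 exchange matrix ATP for cytosolic ADP; the first is the form of heart and muscle and the second that of proliferating cells. Slc25a4 read 11.56, 11.46 and 11.66 in ezrinT567A-GFP and 11.35 in GFP (difference 0.22, SE 0.10, limma adjusted p = 0.453). Slc25a5 read 11.36, 11.16 and 11.28 in ezrinT567A-GFP and 11.40 in GFP (difference -0.14, SE 0.11, limma adjusted p = 0.641). Each stayed on its own side of GFP on all 3 arrays. Both values were close to those of the chromosome: genes of chromosome 8, where Slc25a4 lies, had a median of 0.24, and genes of chromosome X, where Slc25a5 lies, a median of -0.14. Less those medians the differences were -0.02 and -0.0012, so the sign of Slc25a4 turned.

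Slc25a5 was also the member with the widest disagreement among probe sets. Its 8 probe sets gave differences from -0.97 to 0.06, with 6 negative and 2 positive. A pair of dimmer probe sets made the low end, and the dimmer of them read 7.49, 6.61 and 7.45 in ezrinT567A-GFP and 8.16 in GFP. Replicate 2 was the lowest in both. Probe sets named _x_at can bind transcripts of similar sequence. All 6 negative probe sets, with the one that stands for the gene, are of this type. The 2 positive ones, at 0.06 and 0.03, are not. Beyond the low pair, _x_at probe sets of Slc25a5 gave -0.24 to -0.14, and the part of such binding was not tested.

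**Figure D4:**
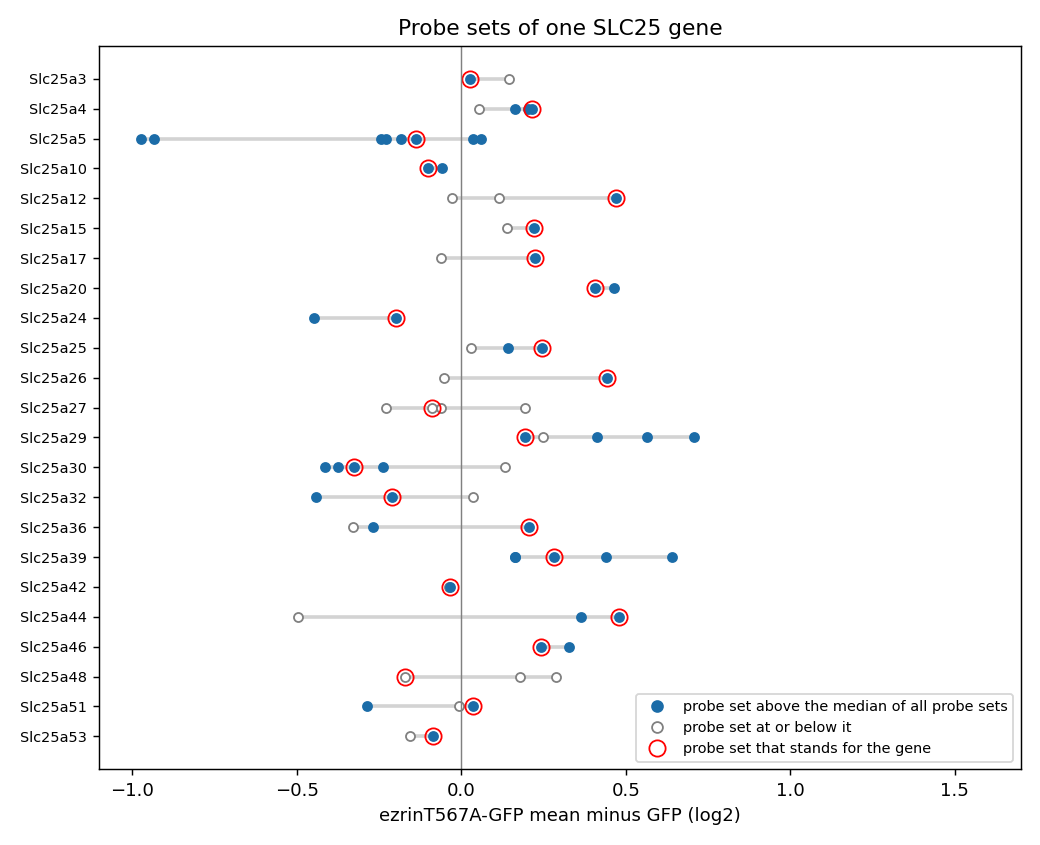
Difference of the ezrinT567A-GFP mean from GFP (log2, horizontal axis) for every probe set of the 23 carriers with 2 or more. Filled points lie above the median of all probe sets, open points at or below it, and a red ring marks the probe set that stands for the gene. Slc25a5 spans -0.97 to 0.06 and Slc25a29 0.19 to 0.71.

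Of 14 members with at least 2 probe sets above the median of all probe sets, 11 had these on 1 side of 0 and 3 on both: Slc25a5, Slc25a36 and Slc25a51. Slc25a36 and Slc25a33 carry pyrimidine nucleotides. Slc25a36 read 7.57, 7.86 and 8.24 in ezrinT567A-GFP and 7.68 in GFP, with replicate 1 below GFP, and its second probe set gave -0.27 against 0.21 for the first. Slc25a33 read 8.36, 7.66 and 7.43 in ezrinT567A-GFP and 7.47 in GFP. Replicate 1 stood well above the others, and the difference of 0.34 had an SE of 0.40 and a 95% interval of -0.74 to 1.43. It was 0.07 without replicate 1 and 0.54 without replicate 3. Genes of chromosome 4, where Slc25a33 lies, were likewise highest in replicate 1, with medians of 0.22, -0.01 and 0.01. The NAD carrier Slc25a51 read 7.87, 7.54 and 7.71 in ezrinT567A-GFP and 7.67 in GFP, and its probe sets gave 0.03 and -0.29.

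**Figure D5:**
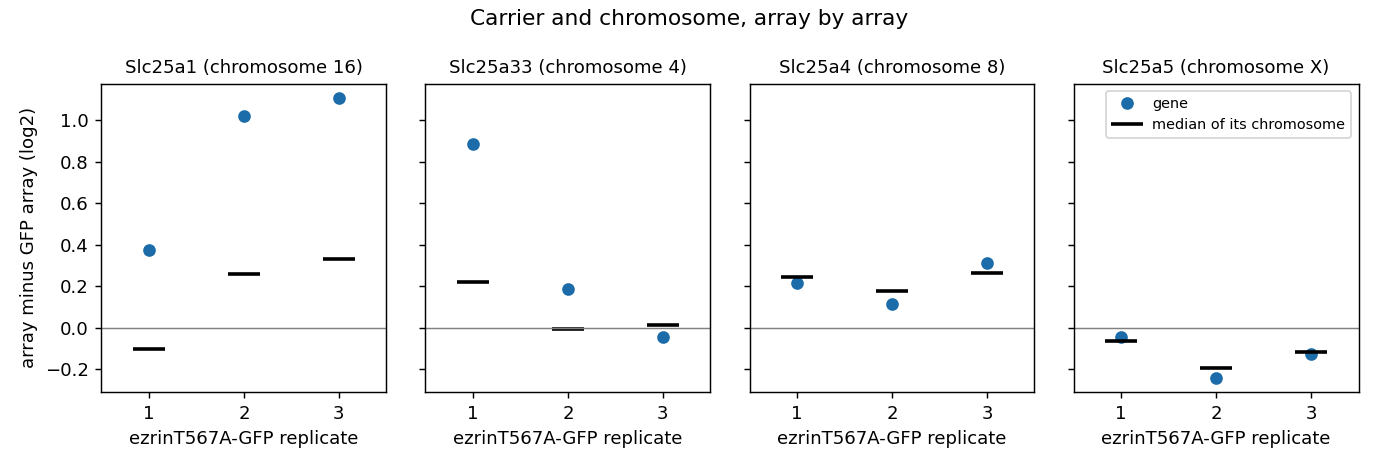
Difference of each ezrinT567A-GFP array from GFP (log2, vertical axis) for 4 carriers (points) and for the median of their chromosome's genes above the median level (dashes). Slc25a4 and Slc25a5 lie close to the dashes, and Slc25a1 lies 0.48 to 0.78 above them.

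Slc25a24, an ATP-magnesium/phosphate carrier that sets the adenine nucleotide content of the matrix, read 10.81, 10.65 and 11.00 in ezrinT567A-GFP and 11.02 in GFP. The difference was -0.20 (SE 0.16), below GFP on all 3 arrays, and a second probe set gave -0.45. Slc25a32, the folate/FAD carrier, read 7.36, 6.58 and 6.96 in ezrinT567A-GFP and 7.18 in GFP. Only replicate 1 lay above GFP, and the difference of -0.21 had an SE of 0.33. It was -0.41 without replicate 1 and -0.017 without replicate 2. The one-carbon enzymes that use matrix folate were 3 higher and 1 lower, with a median of 0.32 and 0 at an unadjusted p under 0.05. Slc25a16, linked to coenzyme A, read 6.80, 6.48 and 6.97 in ezrinT567A-GFP and 6.97 in GFP, a difference of -0.22 (SE 0.23), or -0.08 without replicate 2 and -0.33 without replicate 3. Slc25a25, a relative of Slc25a24, was 0.25 higher (SE 0.17) and the peroxisomal Slc25a17 0.22 higher (SE 0.17). The coenzyme A carrier Slc25a42 stood at -0.03 (SE 0.14), and at -0.27 less the median of its chromosome, 8.

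The 3 uncoupling-protein-like carriers all had means below GFP, from -0.33 to -0.06, with 1 below on all 3 arrays. That was Slc25a30, which read 8.45, 8.16 and 8.30 in ezrinT567A-GFP and 8.63 in GFP. The difference was -0.33 (SE 0.15, 95% interval -0.74 to 0.09, limma adjusted p = 0.435). Its 4 probe sets above the median of all probe sets gave -0.41 to -0.24, and a dim one gave 0.13. Slc25a14 stood at -0.06 (SE 0.14), and at 0.08 less the median of its chromosome, X. Slc25a27, below the median level of all genes, stood at -0.09 (SE 0.18), with replicate 3 above GFP. Less the median of its chromosome, 17, it was at 0.04, and its 4 probe sets gave -0.23 to 0.19. Of the uncoupling proteins themselves, which belong to the family under other symbols, Ucp1 (2.22 to 2.33 in ezrinT567A-GFP and 2.35 in GFP) and Ucp3 (4.38 to 4.63 and 4.62) lay below the median level of all genes. Ucp2 was listed as well but was not among the genes measured, so its level is not known here.

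Members with another or no assigned substrate numbered 7, with 2 means above GFP, 5 below and a median of -0.03. Slc25a46, an outer membrane protein of mitochondrial dynamics, read 8.47, 8.48 and 8.53 in ezrinT567A-GFP and 8.25 in GFP. The difference was 0.24 (SE 0.10, limma adjusted p = 0.406), and a second probe set gave 0.33. Genes of its chromosome, 18, had a median of 0.21. Slc25a54 was -0.25 (SE 0.10) at a dim level of 2.71 to 2.80 in ezrinT567A-GFP and 2.99 in GFP.

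Genes that share the membrane or the import route with these carriers lay on both sides of GFP. Of 14 other inner membrane transporters 8 were higher and 6 lower, with a median of 0.07. Sfxn4, a sideroflexin, was 0.65 higher (SE 0.21), Letm1, a potassium/proton exchanger, 0.43 higher (SE 0.12), and Micu2, a gatekeeper of the calcium uniporter, read -0.48 (SE 0.11). Among the outer membrane channels Vdac1 read 10.51, 10.52 and 10.46 in ezrinT567A-GFP and 10.99 in GFP (difference -0.49, SE 0.08, limma adjusted p = 0.218). Vdac2 and Vdac3 lay on the other side of GFP, at 0.11 (SE 0.08) and 0.35 (SE 0.13). Of 12 carrier import genes 5 were higher and 7 lower, with a median of -0.04, Timm8a1 at 0.53 (SE 0.22) and Timm17a at -0.50 (SE 0.11). Outside the Slc25a naming, Mtch1 stood at -0.35 (SE 0.13) and Mtch2, an outer membrane insertase, at 0.22 (SE 0.10). Across these lists 0 genes passed limma's adjusted threshold.

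For the promoters, 34 of the 44 members matched the RefSeq table, with 43 windows, since some genes have several. The motifs were searched on both strands without mismatches. The GC box (GGGCGG) was in 74.4% of member windows and 32.7% of all 32851 windows, the CCAAT box (CCAAT) in 46.5% and 33.8%, and the E-box (CACGTG, its own reverse complement) in 18.6% and 6.02%. The ETS motif (CCGGAAG) was in 14.0% and 6.91%, the NRF1 motif in 4.65% and 3.74%, and the sterol regulatory element (TCACNCCAC) in 2.33% and 1.05%. Member windows were also richer in G and C, with a median of 58.0% against 52.4%. The windows shown for Slc25a1 and Slc25a30 hold no TCACNCCAC.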

How the data were processed

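Total RNA was labelled as biotinylated cRNA with the one-cycle assay, per the labels' protocols, and hybridised to 1 array per sample. The authors deposited a log2 level for each probe set, made with RMA per the submitters' processing notes; its version is not given in the sources used here. The log2 scale was read from the values.

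Of 45101 probe sets, 34945 with 1 gene symbol and no control role were used (platform annotation; symbols and chromosomes checked against GRCm38.p6). No filter on dim genes was applied. All genes went through 1 limma model (version 3.58.1, R 4.3.3; lmFit, then eBayes with a mean trend), two-sided, with Benjamini-Hochberg adjustment over 18193 genes called under 0.05. Only ezrinT567A-GFP supplies residual degrees of freedom, 2 in number, and the model assumes that the single GFP array varies like these. SE is the moderated standard error and 95% intervals use it. An exact permutation of the 4 arrays cannot go below p = 0.25. Tested on simulated data of this comparison over 18193 genes, the fit found 66.1% of 4-fold and 3.6% of 2-fold changes. The 20 simulations changed 200 genes each, drew every gene independently and gave the GFP array the same spread as the others. Shifts shared by the genes of a chromosome were not simulated, so these rates hold for that setting only.

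Values in every array are given for the 8 brightest members, the members with the 8 largest differences in each direction among those above the median level, and those whose probe sets above the median differ in sign; other lists gave the genes of smallest p. The members, lists and motifs were chosen with earlier results of these data known. The number of arrays limits the precision. Alternatives were other normalizations, probe set choices, dim gene filters, variance priors, chromosome medians and leaving out replicates. Figures were drawn with matplotlib 3.10.9.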

Additional observations from a re-analysis of the deposited data

How the results depend on the processing

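No member passed the threshold in limma under any alternative run (0 each time), while 5 had an unadjusted p under 0.05. The count over all genes was 0, but 34 with quantile normalization, 30 with median centring, 6 with the mean of the probe sets, 3 without dim genes and 9 with a robust prior; the cause was not tested. The family median of 0.04 was 0.21 without dim genes, which leaves 33 members, and 0.03 to 0.07 when a replicate was left out. Members above GFP on all arrays left in numbered 19 to 21, and those below 9 to 14, when a replicate was left out, with 14 below without replicate 1; fewer arrays have to lie on 1 side. Of 239 differences of named members under alternatives, 7 changed sign. Slc25a36 was -0.13 with the mean of the probe sets and -0.27 without _s_at, _x_at and _a_at probe sets, and Slc25a5 was 0.034 in the second setting. Slc25a51 was -0.086 with the mean of the probe sets, -0.047 to 0.12 when a replicate was left out (lowest without replicate 1) and -0.049 less its chromosome median, and Slc25a4 was -0.023 less its chromosome median. A further 6 kept their sign less the chromosome median but moved by more than their SD over the replicates. Slc25a5 came to -0.0012, Slc25a10 to -0.21, Slc25a13 to -0.21, Slc25a26 to 0.51, Slc25a28 to 0.34 and Slc25a46 to 0.03. Without replicate 1, Slc25a39 was 0.15 and Slc25a36 0.37, and without replicate 3 Slc25a36 was 0.032; without replicate 2, Slc25a5 was -0.084, Slc25a24 -0.11 and Slc25a37 -0.070. With the mean of the probe sets Slc25a44 was 0.12, Slc25a26 0.20, Slc25a5 -0.33 and Slc25a24 -0.32. No paired analysis was possible because there is only 1 GFP array for the 3 ezrinT567A-GFP arrays. RMA values hold no signal over background, so the dim members have no known floor.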
